A study of Mus musculus with 6 samples.

Results

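The genes described here encode the enzymes that commit carbon to hepatic gluconeogenesis and those that bring pyruvate, glycerol and amino acids to it. The 10 members were chosen by gene symbol: Pcx, Pck1, Pck2 and Fbp1 on the route from pyruvate and lactate, Gpd1 and Gpd2 on the route from glycerol, and Gpt, Gpt2, Tat and Sds on the route from amino acids. They are 10 of the 18453 genes with any assigned fragment, and all 10 were among the 13431 genes that passed the filter on low counts. Liver RNA-seq was compared between 3 mice given AAV8-TBG-Cre and 3 given AAV8-TBG-GFP, an adeno-associated virus whose TBG promoter directs expression to hepatocytes. All 6 mice were Mettl14f/f males on a high-fat diet (HFD), and GEO's genotype field calls the GFP group WT and the Cre group METTL14 KO. The diet began at 8 weeks of age, the vector was injected after 10 weeks of diet, and RNA was taken 8 weeks after injection. Feeding state and time of day at harvest are not given in the sources used here. The comparison asks how these genes differ in livers in which hepatocyte Mettl14, a subunit of the m6A RNA methyltransferase, was targeted.

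Gluconeogenesis makes glucose from small carbon precursors and keeps blood glucose up between meals. Pyruvate carboxylase and phosphoenolpyruvate carboxykinase carry pyruvate to phosphoenolpyruvate, and fructose-1,6-bisphosphatase commits the carbon to the last steps before glucose release. Glycerol enters through glycerol-3-phosphate dehydrogenases, and amino acids enter through transaminases and dehydratases that yield pyruvate or other intermediates. In liver, Pck1, Tat and Sds are classical targets of glucagon, cAMP and glucocorticoid signals, and insulin lowers Pck1.

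Between 20356440 and 21010508 fragments were assigned per library. Mettl14 itself stood at 6.30, 6.43 and 5.81 CPM (counts scaled to a common library size by TMM) in AAV8-TBG-GFP replicates 1 to 3 and at 4.96, 5.38 and 4.86 in AAV8-TBG-Cre replicates 1 to 3. The groups did not overlap in CPM but did in FPKM, where Cre replicate 2 was the highest library at 2.40 and GFP replicates 1 and 2 stood at 2.31. The log2 difference of -0.29 (SE 0.15) did not pass the threshold (edgeR quasi-likelihood test, adjusted p = 0.336), so groups are named by vector throughout. In male livers of the same model, taken earlier after injection, the paper reports a substantial loss of METTL14 protein and lower total RNA m6A with AAV8-TBG-Cre. The RNA values here measure neither. The libraries have either a short or a long name in the labels. GFP replicates 1 and 2 and Cre replicate 1 have short names, and GFP replicate 3 and Cre replicates 2 and 3 have long names. The first principal component of log2 CPM, with 54.1% of the variance, separated the vectors, and the second, with 18.7%, set GFP replicates 1 and 2 and Cre replicate 1 apart from the other 3.

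Among the 10 genes, Gpd2 fell and Pck2 rose with AAV8-TBG-Cre, and the other 8 passed no threshold. At an unadjusted p under 0.05 with a fold of 1.2 or more, 1 member was lower, beside 8.41% of all genes tested, and 1 was higher, beside 12.0%. At an adjusted p under 0.05 only Gpd2 passed, against 0.931% of all genes in either direction. CPM values of the groups did not overlap for 2 members, Gpd2 and Pck2, and for 27.0% of all genes. The members' counts at the unadjusted threshold and without overlap are near the shares of all genes, and a single gene carries the adjusted call. The median log2 fold change of the 10 genes was -0.19, beside -0.01 over all genes tested. Of all calls, 58.9% were higher in the main fit, 72.3% with upper quartile scaling and 83.7% with limma on log2(FPKM + 1). The median of all genes moved to 0.11 on that FPKM scale, so small differences below are relative to the TMM scale. Liver is a mixture of cells, so fewer cells of a type and less RNA per cell cannot be told apart in any of these values.

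**Figure D1:**
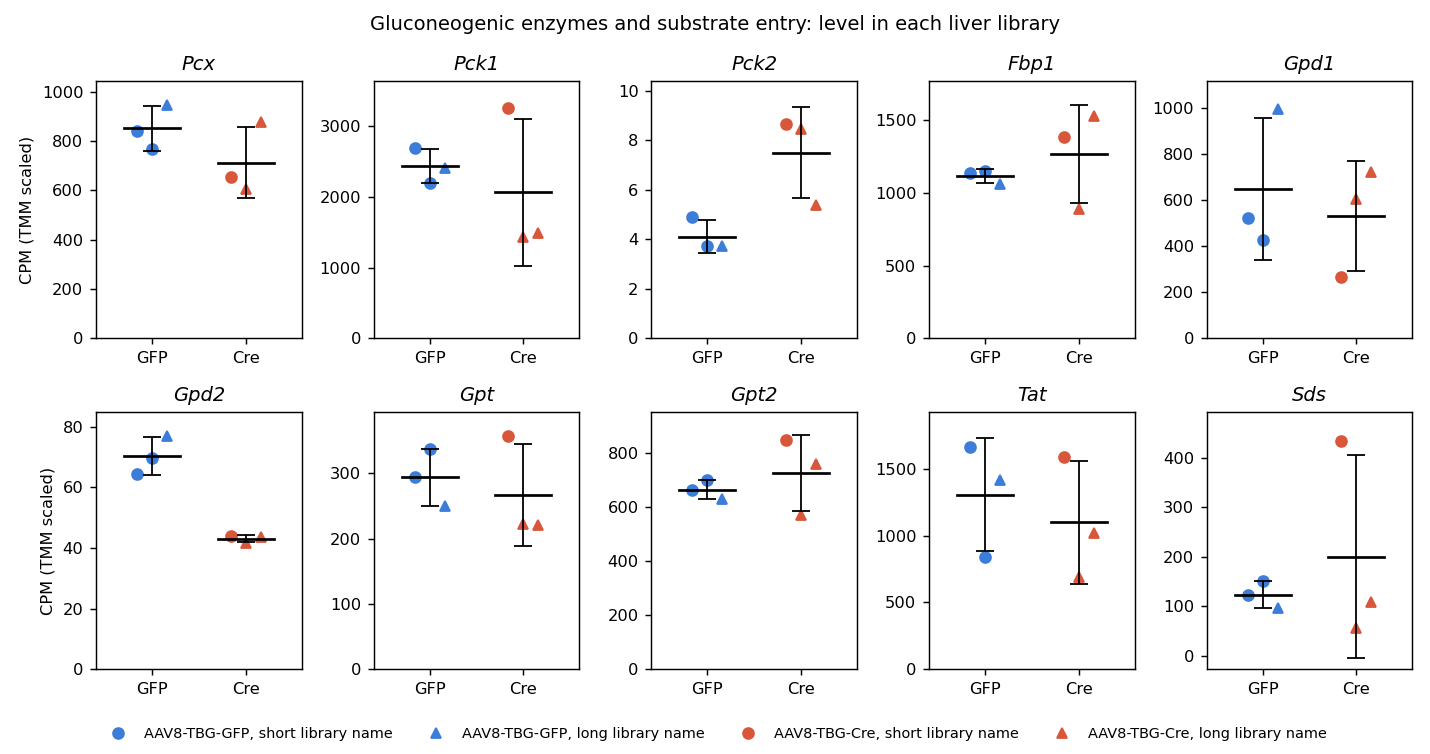
Each panel plots the CPM of a gene in the 6 libraries, with circles for short library names, triangles for long names, a bar at the group mean and whiskers of 1 SD (n = 3 per group). Gpd2 lies between 64.5 and 76.8 CPM with GFP and between 41.7 and 43.9 with Cre, Pck2 is separated the other way, and the other 8 genes overlap.

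The spread between mice was wide and was larger in the Cre group. The coefficient of variation was larger with Cre than with GFP for 8 of 10 members, beside 61.5% of all genes tested. For Pck1 it was 10.0% with GFP and 50.2% with Cre, and for Sds 22.1% and 103%. Gpd2 went the other way, with 8.83% and 2.70%. Cre replicate 1 held the highest value of 5 members on the CPM scale and of 5 on the FPKM scale. Cre replicate 2 held the lowest value of 7 members on the CPM scale but of only 1 on the FPKM scale, so that ordering rests on the scaling.

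**Figure D2:**
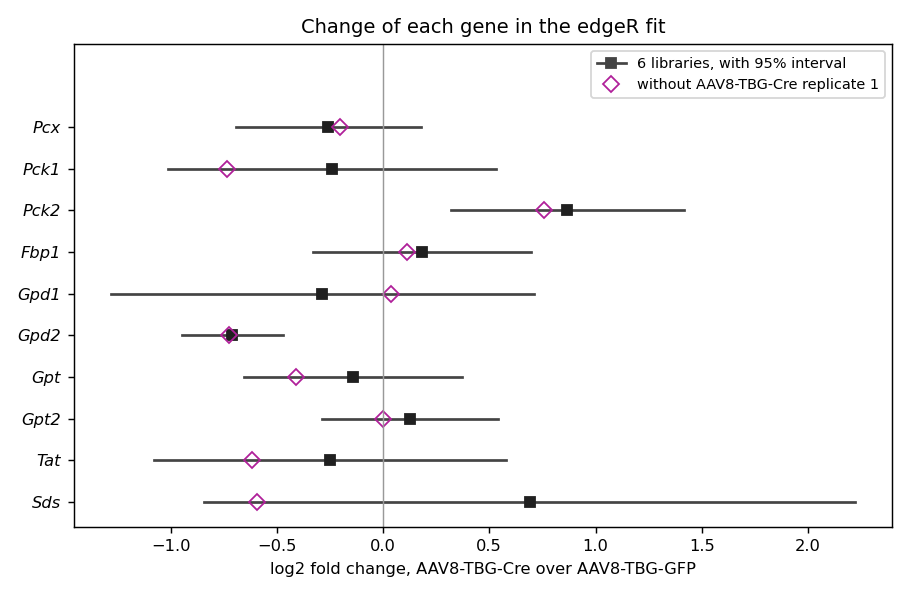
The log2 fold change of each gene (x axis, Cre over GFP) is shown as a square with its 95% interval from the edgeR fit of 6 libraries, and as an open diamond without AAV8-TBG-Cre replicate 1. Only the intervals of Gpd2 and Pck2 leave out 0, and the diamonds of Pck1, Gpt, Tat and Sds lie well to the left of their squares.

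Levels between genes were compared as FPKM, which scales by transcript length. With GFP the order was Pck1 (871 ± 101, SD, n = 3), Fbp1 (714 ± 49.2), Tat (517 ± 171), Gpd1 (214 ± 94.8), Pcx (191 ± 16.2), Gpt2 (173 ± 13.1), Gpt (153 ± 25.8), Sds (102 ± 24.2), Gpd2 (11.6 ± 0.68) and Pck2 (1.13 ± 0.209). The ranges of neighbours overlapped for Fbp1 and Tat, Gpd1 and Pcx, Pcx and Gpt2, and Gpt2 and Gpt. The other neighbours were apart, with the closest pair at 126 FPKM for the lowest Gpt value and 125 for the highest Sds value. Pck1 exceeded 99.6% of the genes in the table, Gpd2 81.6% and Pck2 51.9%. So the 2 genes that passed a threshold are the 2 least abundant of the set. With Cre the order began with Fbp1 (898 ± 166) and then Pck1 (821 ± 383), whose ranges overlapped.

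Pcx, on chromosome 19 (GRCm38.p6, 19:4510472-4621752), encodes the mitochondrial enzyme that turns pyruvate into oxaloacetate. Its level was 839, 768 and 947 CPM in GFP replicates 1 to 3 and 653, 606 and 876 in Cre replicates 1 to 3. Cre replicates 1 and 2 lay below all GFP libraries and replicate 3 lay among them. The log2 difference of -0.26 (SE 0.19, 95% interval -0.69 to 0.18) did not pass the threshold (edgeR, adjusted p = 0.483). Fragments were divided between 2 RefSeq transcripts, NM_001162946 of 4148 nt and NM_008797 of 4125 nt. NM_001162946 took 65.0%, 73.8% and 61.2% of the gene's count with GFP and 70.6%, 65.4% and 50.8% with Cre, so Cre replicate 3 had the lowest share. The transcripts share most of their sequence, and such shares are estimates.

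Pck1 (2:173153073-173159274) encodes the cytosolic carboxykinase, and Pck2 (14:55540263-55550020) the mitochondrial form. Both catalyse the step from oxaloacetate to phosphoenolpyruvate. The 150 bases before the start given in the RefSeq promoter table (GRCm38.p6, position 173153073 for Pck1 and 55540266 for Pck2, the latter just inside the gene's outermost bounds) are shown because the promoters hold different elements at a similar distance. Capitals mark the letters TTACGTCA in Pck1, the form of the cAMP response element known from this promoter, and the reverse complement of TGATGNAA in Pck2, the core of the element bound by ATF4 in the amino acid response.
Pck1, 2:173152923-173153072, plus strand: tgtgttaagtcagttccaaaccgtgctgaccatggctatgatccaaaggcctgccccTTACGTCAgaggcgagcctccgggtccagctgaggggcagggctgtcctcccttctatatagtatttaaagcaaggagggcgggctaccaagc
Pck2, 14:55540116-55540265, plus strand: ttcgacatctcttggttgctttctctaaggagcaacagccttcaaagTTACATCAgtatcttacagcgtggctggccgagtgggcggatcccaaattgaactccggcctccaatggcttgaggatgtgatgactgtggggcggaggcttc
The Pck1 element begins 93 bases before that start and the Pck2 element 103 bases before it. TTACGTCA occurs on either strand in 0.499% and TGATGNAA in 3.97% of the 32851 mouse promoter windows, which run from 250 bases before to 50 after a start. Of the 10 genes, 7 have windows in the RefSeq table, 9 windows in all. Gpd1, Gpt and Sds were not matched. The only other matches were TGACG on the minus strand within the Pck1 element, a motif found in 20.8% of windows, and the E-box CACGTG 248 bases before the upstream start of Pcx, found in 7.15%. TGACGTCA (1.79% of windows), the forkhead site TGTTTAC (3.65%), the glucocorticoid receptor hexamer TGTTCT (19.0%) and TATAAA (13.6%) were in none of the 9 windows on either strand. These matches describe letters in the windows and say nothing of binding.

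Pck1 stood at 2686, 2200 and 2408 CPM in GFP replicates 1 to 3 and at 3252, 1434 and 1492 in Cre replicates 1 to 3. Cre replicate 1 was the highest of all 6 libraries, and Cre replicates 2 and 3 were the lowest. The log2 difference was -0.24 (SE 0.33, 95% interval -1.01 to 0.53), and it did not pass the threshold (edgeR, adjusted p = 0.727). Without Cre replicate 1 it was -0.73 (SE 0.18, unadjusted p = 0.00479 and edgeR adjusted p = 0.0553).

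Pck2 rested on few fragments, 96, 73 and 71 with GFP and 181, 206 and 112 with Cre. These were 4.88, 3.72 and 3.72 CPM in GFP replicates 1 to 3 and 8.64, 8.46 and 5.39 in Cre replicates 1 to 3. Every Cre library was above every GFP library, and Cre replicate 3 was the closest to them. The gene rose by 0.87 on the log2 scale (SE 0.24, 95% interval 0.32 to 1.42), a fold of 1.83. The unadjusted p was 0.0067 and the edgeR adjusted p 0.101, so the gene passed the unadjusted threshold only. The direction held in the 10 alternative fits and the 6 that left out a mouse, with log2 values from 0.63 to 1.05 and adjusted p from 0.0307 in DESeq2 to 0.283 in edgeR without GFP replicate 2.

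Fbp1 (13:62864753-62888298) encodes liver fructose-1,6-bisphosphatase. It stood at 1132, 1149 and 1060 CPM in GFP replicates 1 to 3 and at 1384, 886 and 1524 in Cre replicates 1 to 3. The GFP libraries lay close together, with 2 Cre libraries above them and Cre replicate 2 below. The log2 difference was 0.18 (SE 0.22, 95% interval -0.33 to 0.70, edgeR adjusted p = 0.683). Without Cre replicate 2 it was 0.38 (unadjusted p = 0.0326, edgeR adjusted p = 0.299).

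On the glycerol route, Gpd2 (2:57237678-57370719) encodes the mitochondrial glycerol-3-phosphate dehydrogenase, which passes electrons from glycerol-3-phosphate to the respiratory chain. Its level was 64.5, 69.6 and 76.8 CPM in GFP replicates 1 to 3 and 43.9, 41.7 and 43.5 in Cre replicates 1 to 3. The Cre libraries lay close together and all below the GFP libraries. Gpd2 fell by 0.71 on the log2 scale (SE 0.10, 95% interval -0.95 to -0.47), to 0.612 of the GFP level. The unadjusted p was 1.46e-04 and the edgeR adjusted p 0.0363. The exact permutation test on log2 CPM gave p = 0.1, the smallest value that 3 against 3 mice allow. Direction and unadjusted call held in every alternative fit and without each mouse in turn. The adjusted p, however, ranged over the alternative fits from 2.32e-06 in DESeq2 to 0.15 in limma on log2(FPKM + 1) without a filter. Among the edgeR fits that left out a mouse it ranged from 0.0277 without Cre replicate 1 to 0.151 without GFP replicate 2. Of these it was under 0.05 only without Cre replicate 1. Transcript NM_010274 of 5620 nt took between 91.7% and 97.9% of the gene's count in each library. NM_001145820 took the rest.

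The genes outside the lists whose log2 CPM was most like that of Gpd2 over the 6 libraries were Ube2u (Pearson r = 0.9993), Rn7s1 and Rn7s2 (0.9986 each). These are the highest of 13242 values and are a description of 6 libraries. Ube2u encodes a ubiquitin-conjugating enzyme and stood at 2.14, 2.30 and 2.46 CPM with GFP and 1.62, 1.56 and 1.59 with Cre. Rn7s1 and Rn7s2, copies of the signal recognition particle RNA, carry identical values of 5.79, 7.35 and 9.53 CPM with GFP and 2.43, 2.22 and 2.50 with Cre. Fragments of such copies cannot be told apart. Ube2u fell by 0.53 on the log2 scale (SE 0.23) and passed the unadjusted threshold only (edgeR adjusted p = 0.238). Rn7s1 and Rn7s2 fell by 1.66 (SE 0.23, edgeR adjusted p = 0.0338), past the adjusted threshold.

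Gpd1 (15:99717587-99725014) encodes the cytosolic NAD-dependent enzyme, which interconverts glycerol-3-phosphate and dihydroxyacetone phosphate. It stood at 521, 425 and 997 CPM in GFP replicates 1 to 3 and at 266, 604 and 724 in Cre replicates 1 to 3. All 3 libraries with long names were above all 3 with short names. Over the 6 libraries the log2 difference was -0.29 (SE 0.43, 95% interval -1.28 to 0.71, edgeR adjusted p = 0.749). Within each form of name the Cre libraries were below the GFP libraries, and the log2 ratio was -0.83 with short names and -0.59 with long names. With the name form as a covariate the log2 difference was -0.71 (SE 0.16, unadjusted p = 0.00323, edgeR adjusted p = 0.0813). Gpd1 thus passed the unadjusted threshold in that fit, while the fit without GFP replicate 3 gave 0.16 and that without Cre replicate 1 gave 0.04.

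On the amino acid route, Gpt (15:76696726-76699675) and Gpt2 (8:85492576-85528902) encode the cytosolic and the mitochondrial alanine transaminase, which turn alanine into pyruvate. Gpt stood at 294.5, 337 and 249 CPM in GFP replicates 1 to 3 and at 356, 222 and 220.0 in Cre replicates 1 to 3. Cre replicate 1 was the highest library and the other 2 Cre libraries were the lowest. The log2 difference was -0.14 (SE 0.22, 95% interval -0.65 to 0.37, edgeR adjusted p = 0.761). Gpt2 stood at 664, 702 and 630.3 CPM with GFP and at 849, 573 and 760.1 with Cre. On that scale Cre replicates 1 and 3 lay above the GFP libraries and Cre replicate 2 below them. The log2 difference was 0.13 (SE 0.18, 95% interval -0.29 to 0.54, edgeR adjusted p = 0.729). In FPKM every Cre library was above every GFP library, at 176.7, 183.6 and 158.4 with GFP and 238.6, 185.8 and 207.0 with Cre. The place of Cre replicate 2 thus rests on the scaling. Limma on log2(FPKM + 1) gave 0.28 (adjusted p = 0.271).

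Tat (8:109986078-109999804) encodes tyrosine aminotransferase, the first enzyme of tyrosine breakdown. Its level was 1665, 841 and 1419 CPM in GFP replicates 1 to 3 and 1594, 688 and 1018 in Cre replicates 1 to 3. Both groups held a library near the bottom of the range, and the groups overlapped. The log2 difference was -0.25 (SE 0.36, 95% interval -1.08 to 0.58, edgeR adjusted p = 0.736). Sds (5:120476547-120483932) encodes serine dehydratase, which makes pyruvate from serine. It stood at 123, 151 and 96.7 CPM with GFP and at 434, 55.3 and 109 in Cre replicates 1 to 3. The highest and the lowest of the 6 libraries were both Cre libraries, 7.85-fold apart. The log2 difference was 0.69 (SE 0.66, 95% interval -0.84 to 2.22, edgeR adjusted p = 0.598), and without Cre replicate 1 it was -0.59.

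The difference between vectors was also taken within each form of library name. The labels do not say what the form stands for, and 1 form holds 1 Cre library while the other holds 1 GFP library. CPM values did not overlap, in the same direction, within both forms for 4 members, beside 43.3% of all genes. Those were Pcx, Gpd1 and Gpd2, lower with Cre, and Pck2, higher with Cre. For Pcx the log2 ratios were -0.30 with short and -0.35 with long names, for Gpd2 -0.61 and -0.85, and for Pck2 1.01 and 0.90. On the CPM scale Pck1, Gpt, Tat and Sds had opposite signs in the forms. The log2 ratio of Pck1 was 0.41 with short and -0.72 with long names, that of Tat 0.35 and -0.73, that of Sds 1.66 and -0.23, and that of Gpt 0.17 and -0.17. In FPKM the long-named libraries overlapped for Pcx (206.4 with GFP, 170.5 and 207.2 with Cre) and Gpt (125.9 with GFP, 145.0 and 120.3 with Cre). The separation of Pcx and the sign of Gpt in long names thus rest on the CPM scale. For Pck1 the interaction of vector and form was -1.13 on the log2 scale, with an unadjusted p of 0.0181 and an edgeR adjusted p of 0.809. For Sds it was -1.90, with an unadjusted p of 0.00876 and an edgeR adjusted p of 0.762. No interaction passed the adjusted threshold, and Tat had an unadjusted p of 0.121. Without Cre replicate 1, 3 members were called lower at the unadjusted threshold, Gpd2, Pck1 and Gpt (log2 -0.41), beside 12.5% of all genes tested in that fit. The form and that single library cannot be told apart within the short names.

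**Figure D3:**
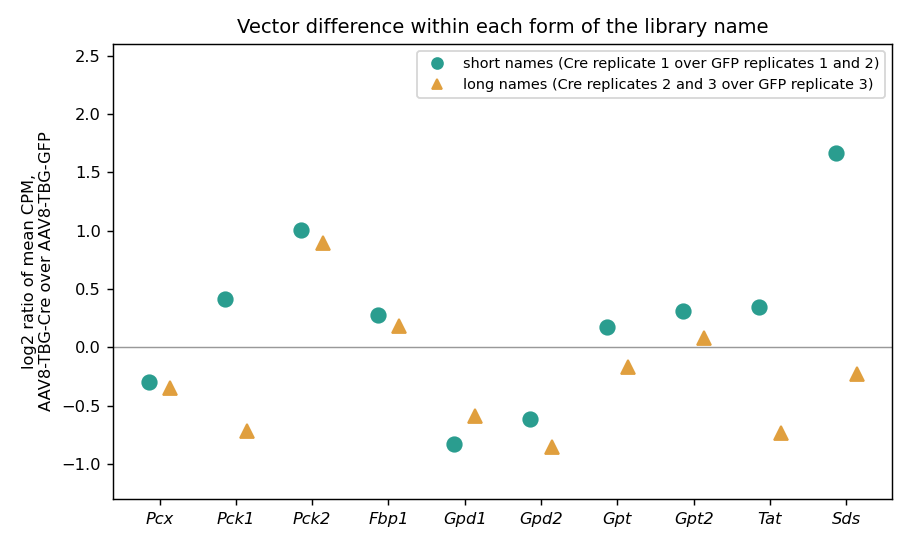
The log2 ratio of mean CPM, Cre over GFP (y axis), is shown for each gene within libraries with short names (circles, 1 Cre over 2 GFP libraries) and long names (triangles, 2 Cre libraries over 1 GFP library). Both marks lie on the same side of 0 for Pcx, Pck2, Fbp1, Gpd1, Gpd2 and Gpt2, and on opposite sides for Pck1, Gpt, Tat and Sds.

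Each step with a cytosolic and a mitochondrial enzyme was also followed as a ratio of FPKM within a library. Pck1 exceeded Pck2 by 720-fold, 771-fold and 843-fold in GFP replicates 1 to 3 and by 491-fold, 220.5-fold and 362-fold in Cre replicates 1 to 3. All Cre ratios were below all GFP ratios, and the mean log2 ratio moved from 9.60 ± 0.11 (SD, n = 3) to 8.41 ± 0.58. The log2 difference was -1.19, and the exact two-sided permutation test gave p = 0.1, the smallest value this design allows. It was -0.60 within short names and -1.58 within long names. With FPKM + 1 in the ratio these became -0.19 and -1.14. In limma on log2(FPKM + 0.1) the log2 difference was 0.96 for Pck2 and -0.18 for Pck1. Most of the shift in the ratio thus came from Pck2, the gene with few fragments. The ratio of Gpd1 to Gpd2 was 16.3, 12.3 and 26.2 with GFP and 12.2, 29.2 and 33.5 with Cre. The groups overlapped (log2 difference 0.40, exact permutation p = 0.6), and the long-named libraries were again the highest. Gpt to Gpt2 was 0.890, 0.963 and 0.795 with GFP and 0.843, 0.781 and 0.581 with Cre (log2 difference -0.28, exact permutation p = 0.2).

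**Figure D4:**
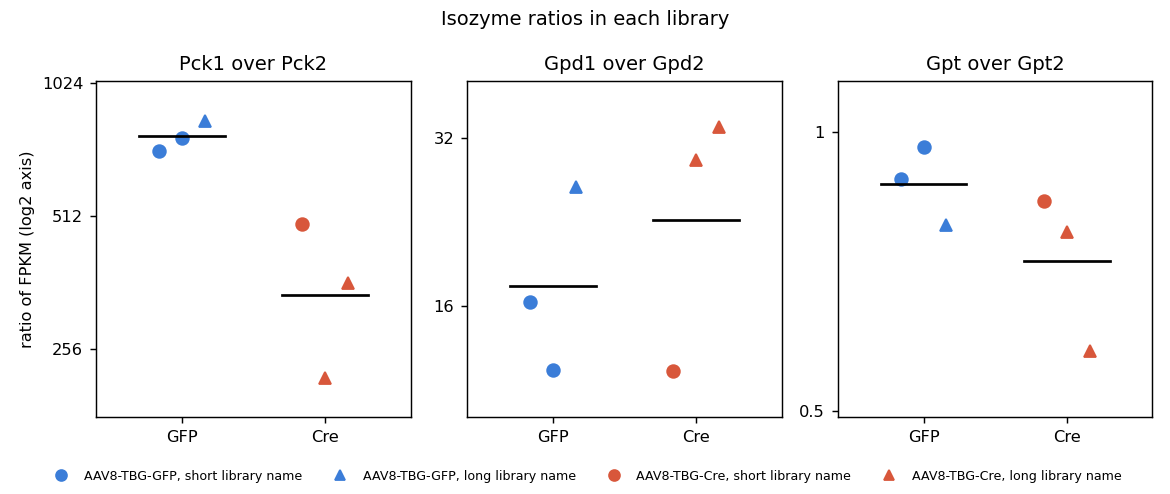
Each panel plots the ratio of FPKM of the cytosolic over the mitochondrial enzyme in the 6 libraries on a log2 axis, with a line at the geometric mean. The Pck1 over Pck2 ratios lie between 720 and 843 with GFP and between 220.5 and 491 with Cre, whereas the groups overlap in the other panels.

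Genes around these steps were followed in lists. Of 125 other genes tested over all lists, 8 were higher and 15 lower at the unadjusted threshold. The shares of all genes tested were 12.0% higher and 8.41% lower, and they stand beside each list and marker count below. None of the 125 passed an adjusted p of 0.05 in edgeR, beside 0.931% of all genes (23 of the 125 had an unadjusted p under 0.05). The adjusted threshold was passed by 14 of 127 in DESeq2, beside 6.28% of all genes in that fit, and by 0 of 123 in limma on log2(FPKM + 1), beside 0.181%. The median log2 fold change of the 125 in edgeR was -0.05, beside -0.01 for all genes. In the list of shared gluconeogenic and glycolytic steps and glucose release, 9 genes were tested and 1 was lower. This was G6pc, the catalytic subunit of glucose-6-phosphatase, at 320.1, 339.5 and 172 CPM with GFP and 190.4, 48.2 and 27.1 with Cre (log2 -1.65, SE 0.67, edgeR adjusted p = 0.219). Its groups overlapped in that Cre replicate 1 lay above GFP replicate 3, the lowest GFP library. Cre replicate 1 was also the highest library for Pck1 and Sds. All 9 log2 values were below 0 on the TMM scale, with a median of -0.24 and Slc37a4 at -0.001 (SE 0.34). Mean FPKM was higher with Cre for Slc37a4 (88.5 with GFP and 97.5 with Cre), Gpi1 (69.3 and 71.3) and Tpi1 (182.8 and 186.9). It was lower for the rest of the genes tested in that list.

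In the list of lactate, pyruvate, malate and aspartate handling, 3 of 15 genes were lower and 1 was higher. Got1, the cytosolic aspartate transaminase, rose from 130.2, 202 and 103 CPM with GFP to 427, 216 and 409.6 with Cre (log2 1.28, SE 0.33, edgeR adjusted p = 0.0891). Slc25a10, the mitochondrial dicarboxylate carrier, fell by 0.54 (adjusted p = 0.0882). Mpc1, a subunit of the mitochondrial pyruvate carrier, fell by 0.33 (adjusted p = 0.160), and Car5a, a mitochondrial carbonic anhydrase that supplies bicarbonate, fell by 0.67 (adjusted p = 0.183). Ldha, the lactate dehydrogenase subunit with the highest FPKM of the list, had a log2 difference of 0.21 (SE 0.34). In the glycerol entry list 0 of 4 genes tested passed the threshold or an unadjusted p under 0.05 alone in edgeR, nor did any in DESeq2 or limma. Aqp9, the hepatocyte glycerol channel, had a log2 difference of -0.18 (SE 0.14), and Gk, glycerol kinase, -0.02 (SE 0.26). Of the glycerol genes, Gpd2 alone passed in this fit.

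In the amino acid entry list 3 of 24 genes were higher and none was lower. Cth, the transsulfuration enzyme that releases cysteine, rose by 1.00 (SE 0.29, edgeR adjusted p = 0.122). Hgd, homogentisate dioxygenase of tyrosine breakdown, rose by 0.47 (SE 0.19, adjusted p = 0.207). Hpd, the enzyme before it and the most abundant of the list, had a log2 difference of 0.12 (SE 0.22).

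Among 28 regulators of gluconeogenic transcription 3 were lower and 1 was higher. Cebpb, a factor of the hormone response of Pck1, fell by 0.65 (SE 0.15, edgeR adjusted p = 0.0735), with 251, 231 and 256 CPM with GFP and 187, 139 and 145 with Cre. Ppara, the fatty acid receptor of fasting, fell by 0.52 (adjusted p = 0.0970), and Nr0b2, the repressor SHP, fell by 0.71 (adjusted p = 0.1997). Creb1, which binds the cAMP response element, rose by 0.31 (adjusted p = 0.209). Cebpa, a hepatocyte transcription factor, was the most abundant, with a log2 difference of 0.16 (SE 0.18). For Atf4, which encodes a factor known to bind elements with the core searched in Pck2, the log2 difference was -0.15 (SE 0.24), and for its target Trib3 it was 0.50 (SE 0.27, adjusted p = 0.340). Neither Atf4 nor Trib3 passed the threshold, and both were named after their values were seen.

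Of 13 glucocorticoid, cAMP and fasting responsive genes, 2 were lower and 1 was higher. Angptl4, an inhibitor of lipoprotein lipase, fell by 0.91 (edgeR adjusted p = 0.107), Dusp1, a phosphatase of MAP kinases, fell by 0.92 (adjusted p = 0.145), and Sgk1, a glucocorticoid-induced kinase, rose by 0.43 (adjusted p = 0.131). Mt1, a metallothionein and the most abundant, ranged from 72.5 to 469.5 CPM, both in the Cre group. In the list of core clock and clock output genes 2 of 15 were lower, the output transcription factor Hlf by 0.45 and the clock repressor Cry1 by 1.01 (adjusted p = 0.160 for each). Dbp, an output factor and the most abundant, had a log2 difference of 0.39 (SE 0.23).

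Gluconeogenesis is stronger in periportal than in pericentral hepatocytes, so genes of both zones were followed. In the periportal list 1 of 11 genes was lower, Ctsc, the protease cathepsin C (log2 -0.88, SE 0.16, edgeR adjusted p = 0.0564), and 1 was higher, Cps1 of the urea cycle (log2 0.74, SE 0.27, adjusted p = 0.177). Ass1, argininosuccinate synthase and the most abundant, had a log2 difference of 0.44 (SE 0.35), with its highest level in Cre replicate 1 at 5758 CPM. In the pericentral list 3 of 11 genes were lower. These were Cyp1a2, a drug-metabolizing cytochrome P450 (log2 -0.77, adjusted p = 0.0611), Slc1a2, a glutamate transporter (log2 -0.52, adjusted p = 0.0975) and Glul, glutamine synthetase (log2 -0.80, adjusted p = 0.159). Cyp7a1, the rate-limiting enzyme of bile acid synthesis, was higher (log2 0.37, adjusted p = 0.207). Cyp2e1, the most abundant, had a log2 difference of -0.36 (SE 0.22). The summed CPM of the pericentral list was 14910 to 16060 with GFP and 10260 to 13870 with Cre. Cyp2e1 alone made up 9873 to 11070 and 6717 to 9183 of it. In FPKM the Cyp2e1 groups overlapped, at 5428, 5986 and 5695 with GFP and 3901, 6157 and 5013 with Cre. The separation of that sum was seen on the CPM scale, and a sum of FPKM was not taken. Cyp1a2 stayed apart in FPKM, at 236, 250 and 211 with GFP and 175, 157 and 128 with Cre, whereas Slc1a2 and Glul overlapped. The summed CPM of the periportal list overlapped.

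**Figure D5:**
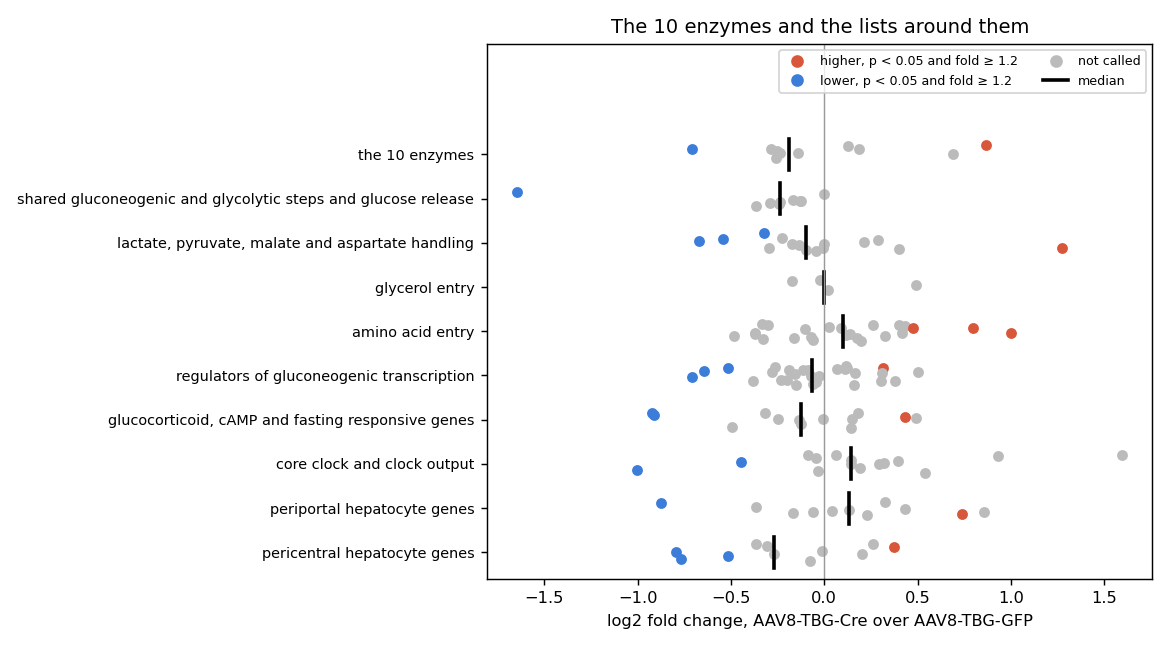
Each dot is the log2 fold change of a tested gene (x axis, Cre over GFP) in the list named on the y axis, red if higher and blue if lower at an unadjusted p under 0.05 and a fold of at least 1.2, grey otherwise, with a black line at the median. The 10 enzymes have a median of -0.19 with 1 red and 1 blue dot, and the other lists hold between 0 and 4 called genes each.

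Markers of other liver cells moved with the vector. All 9 cholangiocyte markers were higher with Cre, and their summed level was 72.3 to 128 CPM with GFP and 307 to 576 with Cre. Of 10 macrophage and Kupffer cell markers 7 were higher (254 to 294 CPM summed with GFP and 398 to 614 with Cre), from Vsig4 (log2 0.36) to Lyz2 (1.52). Marco (log2 -0.75), Clec4f (0.29) and Timd4 (0.29) were not called. Of 9 stellate cell and fibroblast markers 4 were higher (239 to 366 and 467 to 972), the collagens Col1a1, Col1a2 and Col3a1, and Pdgfrb. The rest of that list was not called, with Lrat (log2 -0.25), Reln (-0.10) and Acta2 (-0.37) below 0 and Dcn (0.38) and Des (0.13) above. Of 9 hepatocyte markers 2 were higher and 1 was lower, and their sums overlapped (109300 to 128500 CPM and 92310 to 118400). Of 8 endothelial markers 1 was lower. Of 5 neutrophil markers tested 3 were higher and 1 was lower. T cell, B cell and adipocyte markers were low, with Cd3e at or under 0.510 CPM and Ms4a1 and Plin1 at or under 0.419 CPM in every library, and Ms4a1 at 0 in Cre replicate 3. Among them Cd8a (log2 1.35) and Cd79a (log2 1.18) were higher and Cd4 (log2 -0.83) was lower at the unadjusted threshold, all at or under 2.63 CPM. Of the adipocyte list, Cfd fell from between 9.25 and 24.7 CPM to between 0.616 and 0.764. Adipoq, at 0.204 to 0.366 CPM with GFP and 0.433 to 0.575 with Cre, was too low to be tested, and Lep had a log2 difference of 0.76 (SE 0.47). Cre replicate 2, the lowest library for 7 members on the CPM scale, had the highest sums of cholangiocyte, macrophage and stellate cell markers. Gpd2 without that library fell by 0.69 on the log2 scale and Pck2 without it rose by 0.77. Cre replicates 1 and 3 also exceeded every GFP library in each of those sums, so leaving out Cre replicate 2 does not address the mixture of cells. The part of other cells in the differences of Gpd2 and Pck2 was not tested.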

How the data were processed

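Liver total RNA of 6 mice was sequenced, 3 per vector. Per library, the authors' deposited transcript files hold an expected count, an estimate of assigned fragments without normalization that need not be whole. FPKM values, for transcripts and in a table of genes, were likewise deposited by the authors with 2 decimals. The submitters' processing notes name HISAT2, Bowtie2, RSEM and mm10, whereas STAR, HTSeq and DESeq2 appear in the paper's methods, all without versions, so how each file was made is not settled.

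The expected counts of a gene's transcripts (joined on NCBI gene ID) were added and rounded. The test was edgeR 4.0.16 (R 4.3.3) with TMM, filterByExpr, glmQLFit and glmQLFTest, with vector as the factor and Benjamini-Hochberg adjustment over 13431 genes. The thresholds were an unadjusted p under 0.05 with a fold of 1.2 or more and, apart from it, an adjusted p under 0.05. Standard errors come from the quasi-F statistic, and SDs are between mice. Isozyme ratios were compared by exact two-sided permutation tests (SciPy 1.17.1). The steps were tested on simulated counts. No 2 libraries of a group agreed within sampling noise (chi-square per gene of 25.8 or more). Tried beside it were other scalings (RLE, upper quartile), DESeq2 1.42.0, no filter, a minimum of 10 counts per library, a replicate block, a covariate for name form, limma 3.58.1 on log2(FPKM + 1) or log2(FPKM + 0.1) where FPKM reached 0.5 in 3 libraries, log2(FPKM + 1) without that filter, a fold of 1.5, FPKM + 1 or CPM in the isozyme ratios, and leaving out each mouse.

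The text names all 10 members and Mettl14, from each list the genes past the unadjusted threshold (up to 6, by p) and the most abundant by FPKM, the 3 genes outside the lists most correlated with the member of smallest p, and markers where a list moves. A few results that this rule covers are not reported here. Members and lists were chosen with earlier results of these data known. Promoter sequences and gene positions are from RefSeq tables on GRCm38.p6, the assembly that mm10 denotes. The genome given as reference is another build and was not used here.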

Additional observations from a re-analysis of the deposited data

Results flagged for a closer look

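For Pck1 and Sds, 2 of the 10 members, the difference between vectors differed between libraries with short and with long names at an unadjusted p under 0.05. For Pck1 the difference in long-named libraries was 1.13 log2 units below that in short-named libraries (interaction -1.13, unadjusted p = 0.0181, edgeR adjusted p = 0.809). For Sds the interaction was -1.90 (unadjusted p = 0.00876, edgeR adjusted p = 0.762). Neither passed the adjusted threshold over all genes. Cre replicate 1 is the single Cre library with a short name, and stood at 3252 CPM for Pck1 and 434 for Sds.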

How the results depend on the processing

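The count of members called lower was 1, beside 8.41% of all genes in the reported fit. With the library name form as a covariate it became 2, which added Gpd1, beside 8.82% of all genes. It lay between 1 and 3 when a mouse was left out. Without Cre replicate 1 it was 3 (Gpd2, Pck1 and Gpt), beside 12.5% of all genes in that fit. Without Cre replicate 3 it was 2 (Gpd2 and Pcx), beside 6.79% of all genes. The count called higher was 1 in all 11 alternatives and 1 to 2 when a mouse was left out, with Fbp1 added without Cre replicate 2, beside 8.19% of all genes. The count at an adjusted p under 0.05 was 1, was 2 in DESeq2 (Gpd2 and Pck2), where 6.28% of all genes passed beside 0.931%, and was 0 in the 3 limma fits, at log2(FPKM + 1), log2(FPKM + 0.1) and log2(FPKM + 1) without a filter. Of the fits that left out a mouse, it was 0 in 5, where 0 to 17 genes of all passed, and 1 without Cre replicate 1, where 928 did. With the replicate number as a block it was 0 (Gpd2 adjusted p = 0.109, log2 -0.71). Same-numbered mice did not pair, with correlations of their deviations of 0.01, -0.26 and 0.21, and the replicate block left 7 calls over all genes at that threshold, beside 125. The median of the members lay between -0.22 and -0.05 over the alternatives and between -0.31 and -0.02 when a mouse was left out.

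Gpd2 and Pck2 kept their direction and unadjusted call throughout. Gpt, not called, had the opposite sign with the name form covariate (log2 0.0012) and in limma at log2(FPKM + 1) (0.0008, with and without the filter) and log2(FPKM + 0.1) (0.0007). Other sign changes came only from leaving out mice: Gpd1 ranged from -0.58 to 0.16, Gpt2 from -0.0006 to 0.27 and Sds from -0.59 to 1.13. The Pck1 to Pck2 log2 ratio was -0.81 with FPKM + 1 and -1.46 to -0.88 with a mouse left out, Gpd1 to Gpd2 0.12 to 0.85, and Gpt to Gpt2 -0.39 to -0.12. The causes of these changes were not tested. Pck2, at 71 to 206 counts, carries the largest counting error of the set.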
